A study of Rattus norvegicus with 3 samples.

Results

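The proteins of the cytosolic ribosome were described here through the genes that encode them, in the somata (cell bodies) of 3 cultured rat hippocampal neurons. A probe set of the array, which is a group of probes read together as 1 measurement, was taken as a member where the annotation gave it exactly 1 gene symbol and that symbol was a ribosomal protein name of the Rpl, Rps, Rplp or Rpsa kind. The rule found 54 of the 31099 probe sets, and these stood for 47 of the 14218 genes measured, 33 of the large subunit and 14 of the small subunit. Of the 47 genes, 42 encode standard proteins of the ribosome and 5 are gene copies (Rpl26l1, Rpl39l1, Rpl3l, Rpl7l1 and Rps27l). Each array held the RNA of 1 soma, cut by glass pipette out of a dispersed hippocampal culture of Sprague-Dawley rat embryos taken at embryonic day 19 and kept 14 days in culture, with no treatment. All 3 arrays form the single group of the series, soma, and are called cells 1, 2 and 3. No second group exists, so every value below is a description, and mean ± SD gives the spread over 3 cells. RNA from a single soma went through 2 rounds of antisense RNA amplification and a further round of 14 h, so these values carry the bias of repeated copying. The amount of RNA per soma was not measured, and a percentile says where a gene stood among the others.

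Ribosomes translate messenger RNA into protein. The small subunit (40S) holds the message and the decoding site, and the large subunit (60S) joins amino acids and lets the growing chain out through an exit tunnel. Each ribosome carries 1 copy of most of its proteins, and most of them are needed in step with each other. Many messages for these proteins start with a C followed by a run of pyrimidines, the 5′ terminal oligopyrimidine (TOP) tract, through which the mTOR pathway controls their translation. In neurons ribosomes are made in the soma, and some are also present in dendrites near synapses.

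Values are given as the percentile of a gene among the 14218 genes of the same array, and as deposited log2 intensity. Probe sets differ in how strongly they bind their target, so the percentiles of 2 genes do not order their transcripts by amount. The reading of 1 probe set can be compared from cell to cell. Probe sets of the same gene did not always change alike, as for Rpl14 and Rpl7 below. A change of a gene between cells therefore also rests on its probe sets. A gene is said to be above background where its log2 value was over the 95th percentile of 126 genes of smell, taste and other organs that a neuron should not use, which lay at 9.55, 10.02 and 9.44 log2 in cells 1, 2 and 3. By this definition 7 of these 126 genes passed the limit in each cell. A value below the limit is not a call of absence.

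The annotated start sites were examined because the TOP tract is the sequence that ribosomal protein messages are known to share. RefSeq (assembly GRCr8) gave a start for 40 of the 47 genes, with 30 bases from each shown here as 15 before and 15 from the start on. A C at the start followed by at least 4 pyrimidines was found in 11 of the 40 (27.5%), 9 of the large and 2 of the small subunit, against 2.63% of all 33469 promoters in the table. The 6 windows printed first carry such a tract, in capitals, and the 3 last belong to members that stood near the top of every array and have none at their annotated start.
Rpl19: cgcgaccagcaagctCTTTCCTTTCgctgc, chr10:83519049-83519078, plus strand
Rpl28: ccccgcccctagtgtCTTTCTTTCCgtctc, chr1:78083518-78083547, minus strand
Rpl35a: gcgggtcttgccttcCTCTTTCCgccatct, chr11:81235007-81235036, minus strand
Rplp0: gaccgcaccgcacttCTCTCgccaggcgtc, chr12:46718376-46718405, minus strand
Rps3a: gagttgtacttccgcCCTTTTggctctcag, chr2:173827028-173827057, minus strand
Rps15: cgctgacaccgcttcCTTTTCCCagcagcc, chr7:10068101-10068130, minus strand
Rpl41: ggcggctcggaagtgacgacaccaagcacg, chr7:1563483-1563512, minus strand
Rps28: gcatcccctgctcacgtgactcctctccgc, chr7:15311319-15311348, minus strand
Rps23: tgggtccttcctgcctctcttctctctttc, chr2:23814502-23814531, plus strand
The tracts were 5 to 10 bases long, and the genes that carried them had mean percentiles of 28.5 to 87.7, from the lowest member up, with none among the highest members. Median percentiles were 69.6, 84.8 and 82.7 in cells 1, 2 and 3 for the 11 genes with a tract, against 82.0, 81.9 and 83.9 for the 29 without. Genes with a tract were the lower ones in cell 1, with a gap of little size in the other cells. An annotated start that is a few bases off hides a tract: the window of Rps23 opens at a T inside a long run of pyrimidines. In the 300 bases around the starts, on either strand, CCGGAAG (the letters that ETS family factors such as GABP bind) was present in 25% of the 40 genes and in 8.75% of all promoters. CTTTCC, which can lie inside a tract, was present in 42.5% of the 40 and 26.4% of all.

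As a group the ribosomal protein genes stood high on every array. Their median percentile was 69.9 in cell 1, 81.9 in cell 2 and 83.4 in cell 3 (78.4 ± 7.39, SD, n = 3 cells), where all genes lie at the middle of the array by construction and the 126 genes of other organs had medians of 29.0, 38.4 and 34.4. Members above the middle of the array numbered 32, 39 and 39 of 47. A total of 28 (59.6%) were above it in all 3 cells, against a background of 26.4% of all genes. The spread was wide all the same, with members from near the bottom of the array to the very top.

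The top 5% of an array held 7, 10 and 13 members in cells 1, 2 and 3, with 5.01%, 5.01% and 5% of all genes there. In the top 5% of every cell were 6 of 47 (12.8%), against 1.39% of all genes, and 14 (29.8%) reached it in at least 1 cell, against 9.91% of all genes. Above background were 9 members in cell 1, 12 in cell 2 and 19 in cell 3, against 8.12%, 5.77% and 10.7% of all genes. The 9 members above background in cell 1 (19.1%) were above it in the other cells too, where 2.22% of all genes were so in every cell. In no cell above background were 27 of the 47 genes (57.4%), 19 of the large and 8 of the small subunit, against 83.2% of all genes.

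**Figure D1:**
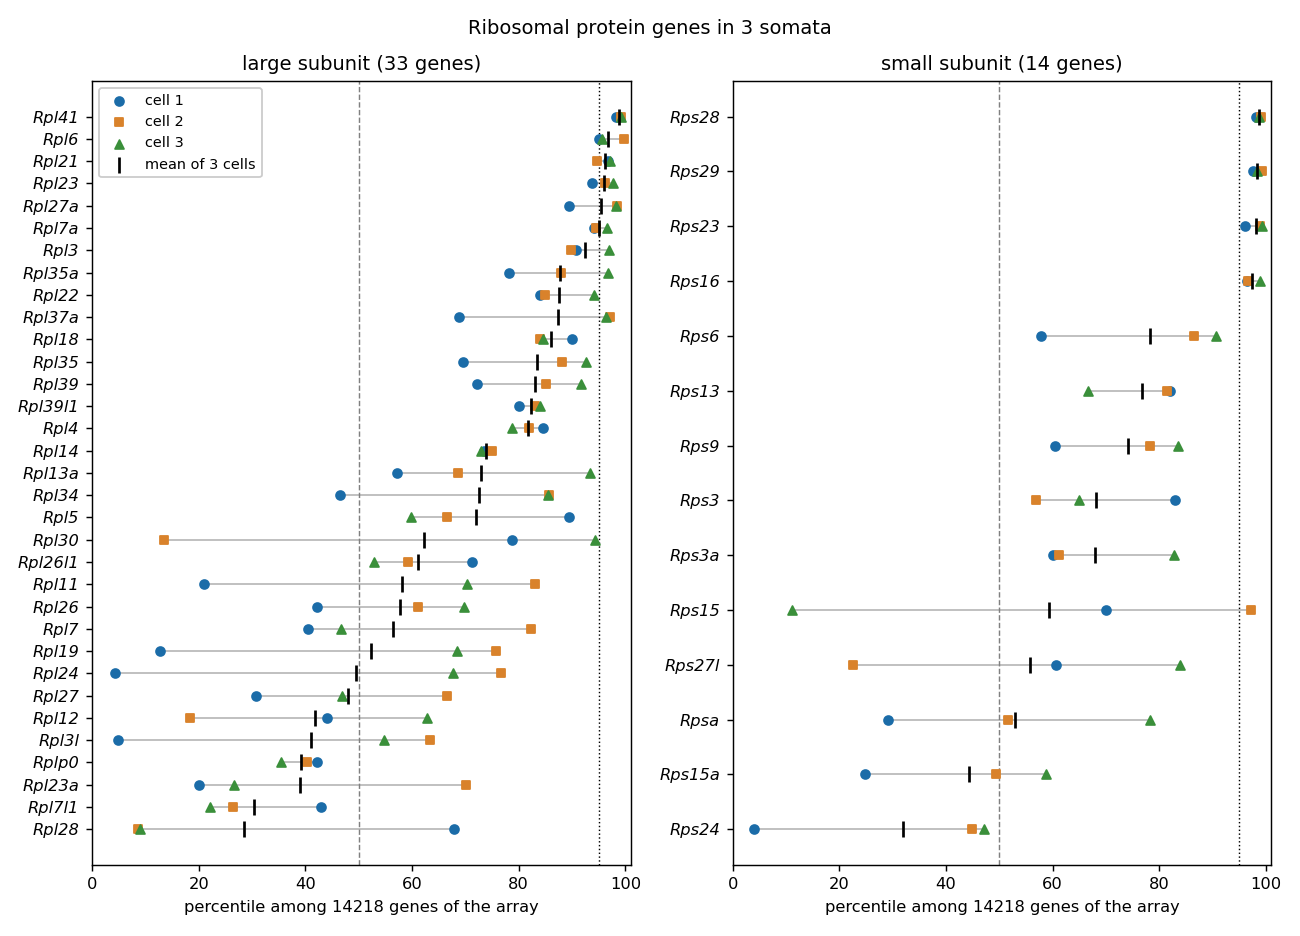
Percentile of each ribosomal protein gene among the genes of its array (horizontal axis) with circles for cell 1, squares for cell 2 and triangles for cell 3. The mean is a vertical bar and the range a grey line, with genes ordered by mean within the large (left) and small subunit (right). The dashed line marks the middle of the array and the dotted line the 95th percentile; 4 small subunit genes lie right of the dotted line in every cell, and the range widens toward the lower genes.

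The subunits had like medians. The large subunit stood at 71.2, 82.3 and 84.0 (79.2 ± 6.95) and the small subunit at 65.3, 79.9 and 83.1 (76.1 ± 9.50) in cells 1, 2 and 3. The difference, large minus small, was 5.94, 2.42 and 0.92 percentile points (3.10 ± 2.58), positive in 3 of 3 cells and smaller than the SD of either subunit over the cells. With means of the genes in place of medians it was -1.67, so no order of the subunits is given. The genes of each subunit were spaced by level as follows. The 14 small subunit genes fell into 4 at mean percentiles of 97.3 or more and 10 at 78.3 or less, with a step of 19.04 points between Rps16 and Rps6 and no gene in it, whereas 14 large subunit genes lay within that step and only Rpl41 lay above it. The widest step of the large subunit was 9.80 points, between Rpl5 and Rpl30. Fewer genes tend to leave wider steps, and 14 were set against 33. No difference in shape between the subunits is therefore drawn from the steps. The empty step rests on how Rpsa is read: without probe sets that may match more than 1 transcript Rpsa was at 85.7 and Rps16 at 97.3, and with the brightest probe set they were at 82.0 and 94.7. In the top 5% of every cell were 2 of the 33 large (6.06%) and 4 of the 14 small subunit genes (28.6%), against 1.39% of all genes. Above background in every cell were 5 and 4, against 2.22% of all genes. With the brightest probe set only 3 members of either subunit were in the top 5% of every cell.

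Among small subunit genes, the top 4 held their place in each soma. Rps28, which lies in the head of the subunit, read 98.1, 99.0 and 98.8 (11.00, 11.47 and 11.53 log2) in cells 1, 2 and 3. Rps29, a zinc-binding protein of the head, read 97.5, 99.3 and 98.3. Rps16, another head protein whose tail reaches the decoding centre, read 96.4, 96.6 and 98.9. By array level the top 4 were mostly head genes, each read by 1 probe set, so this need not be the order of the transcripts. Rps23, which sits at the decoding centre, was the only one of the 4 from the body, at 96.1, 98.9 and 99.3. Among 5 measured head genes of 13 listed, the median was 96.4, 97.2 and 98.3, and among 8 measured of 17 for body and platform it was 58.9, 69.7 and 80.5. Most of the listed genes were not measured by a member, and 2 of the measured head genes were not high in every cell.

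The exceptions in the head were Rps3 and Rps15. Rps3, which lines the entry of the message channel, read 82.9, 56.8 and 64.9. Rps15 had the widest range of all members, 86.1 points: it read 69.9 in cell 1, 97.2 in cell 2 and 11.1 in cell 3 (8.002, 10.70 and 5.42 log2). It was thus above background in cell 2 and far below it in cell 3.

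In the body and platform most genes were lowest in cell 1. Rps6, the substrate of the S6 kinases and long used as a readout of mTOR activity, read 57.7, 86.5 and 90.6, and passed background in cell 3 alone. Rps13 went the other way, at 82.0, 81.5 and 66.6. Rps3a, which lies on the platform, read 60.1, 61.2 and 82.7. The dimmer genes of this group were Rpsa, Rps15a and Rps24. Rpsa, also known as a laminin receptor precursor, read 29.1, 51.7 and 78.2. Rps15a read 24.9, 49.3 and 58.7, and Rps24, one of the genes mutated in Diamond-Blackfan anaemia in humans, 4.09, 44.8 and 47.1. All 3 were lowest in cell 1 and highest in cell 3.

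The large subunit was led by Rpl41, the smallest protein of the ribosome, which read 98.2, 99.1 and 99.2 (11.02, 11.53 and 11.82 log2) and had the highest mean of all members (98.8 ± 0.58). Rpl6 followed at 95.1, 99.8 and 95.5, and in cell 2 its 12.27 log2 was the highest value of any member on any array. Rpl21 read 96.7, 94.6 and 97.1 and Rpl23 93.7, 96.3 and 97.7, both above background in each cell. Rpl27a, with 89.4, 98.5 and 98.3, was above it in cells 2 and 3. Rpl7a read 94.2, 94.4 and 96.5, a range of only 2.30 points. These 6 genes were high in every soma, although just Rpl41 and Rpl6 were in the top 5% of each.

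Genes of the exit tunnel and its rim were mixed. Of 9 listed, 7 were measured, with medians of 69.6, 81.9 and 78.8. None of the 7 reached the top 5% in any cell, where 9.91% of all genes did, so that count says little. Rpl39, a short protein in the tunnel wall, read 72.3, 85.0 and 91.7. Rpl19, which also forms a bridge to the small subunit, read 12.7, 75.8 and 68.5. Rpl26 read 42.2, 61.2 and 69.8 and Rpl23a, a docking site for factors at the tunnel exit, 20.0, 70.1 and 26.7. These were lowest in cell 1 in each case. In cells 2 and 3 Rpl23a was the odd one out, high in the first of these and low in the other.

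The other 11 standard members of either subunit had mean percentiles that ran between 48.1 (Rpl27) and 87.7 (Rpl35a). In several of them, cells 2 and 3 read well above cell 1. Rpl37a, a zinc-binding protein, read 68.8, 97.0 and 96.3, and Rpl34 46.4, 85.6 and 85.5. Rpl35a, another of the anaemia genes, read 78.2, 88.0 and 96.8, and Rpl35, at the rim of the exit tunnel, 69.6, 88.2 and 92.6. These rank among the genes that place the members lower in cell 1. By contrast Rpl4, in the tunnel wall, kept nearly the same place, at 84.6, 81.9 and 78.8. Rpl14 read 73.4, 75.1 and 73.0, but this is the median of 2 probe sets that went opposite ways, with 8.61, 6.91 and 7.13 log2 on the first and 7.70, 9.63 and 9.21 log2 on the second. Rpl18 read 89.96, 83.9 and 84.6 and Rpl22, at the rim, 84.0, 84.8 and 94.1. Rpl13a, known in human cells for a role in silencing inflammatory messages outside the ribosome, read 57.1, 68.6 and 93.3, and Rps9, a protein of the small subunit body, 60.5, 78.3 and 83.4. Only Rpl35a, Rpl37a, Rpl22, Rpl35 and Rpl13a of these 11 passed background in any cell.

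Of the stalk that recruits elongation factors, 2 of 4 listed genes were measured, with medians of 43.2, 29.3 and 49.1. Rplp0, the base of the P stalk, read 42.2, 40.2 and 35.4, a narrow range of 6.81 points below the middle of each array. Rpl12, which lies at the foot of the stalk, read 44.1, 18.4 and 62.8. No probe set met the rule for the other stalk proteins, Rplp1 and Rplp2. The 2 proteins that bind 5S RNA, Rpl5 and Rpl11, which also hold back Mdm2 when ribosome assembly fails, differed in their order over the cells. Rpl5 was highest in cell 1 and Rpl11 lowest: Rpl5 read 89.4, 66.6 and 59.9, and Rpl11 21.1, 83.0 and 70.3. Of 17 genes listed for Diamond-Blackfan anaemia, 10 were measured, and their medians of 73.9, 83.5 and 77.4 were close to those of all members.

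Some large subunit genes of middle or low mean level differed widely between the cells. Rpl28 had the lowest mean of all members (28.5 ± 34.1), yet it read 67.9 in cell 1 against 8.63 and 8.94 in cells 2 and 3. Rpl30, which binds its own message in yeast to restrain it, read 78.7, 13.4 and 94.4, a range of 80.9 points. Rpl24, a bridge protein, read 4.35, 76.7 and 67.7. A range of over 50 points was seen for 9 of 47 members (19.1%), 7 large and 2 small, against 20.8% of all genes, so wide swings were about as common here as elsewhere on the array.

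By list median the 5 gene copies read lower than the standard set in each cell. None of the copies was above background in any cell, as were 83.2% of all genes, so that count says little about them. Their medians were 60.6, 59.2 and 54.7, against 71.1, 82.7 and 84.0 for the 42 standard genes. Rpl39l1, of a kind known from the testis in mouse, was the highest and steadiest, at 80.1, 83.0 and 84.0, beside its parent Rpl39 above. Rpl3l, the form of striated muscle, read 4.97, 63.4 and 54.7, against 90.7, 89.8 and 96.9 for Rpl3, the parent near the peptidyl transferase centre. Rpl7l1, which works in ribosome assembly, read 42.9, 26.4 and 22.1, against 40.5, 82.3 and 46.6 for Rpl7. Rpl26l1 read 71.2, 59.2 and 52.9 and Rps27l, a p53 target in human cells, 60.6, 22.7 and 83.9. In none of the 4 pairs with a measured parent was the copy above the parent in all 3 cells, and Rpl39l1, Rpl7l1 and Rpl26l1 were above theirs in cell 1 alone. Near-identical messages can bind the same probes, so how much of a copy's signal belongs to its parent is uncertain.

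Most members have 1 probe set (41 of 47), and the other 6 allowed a check within a gene. Ranked among all probe sets of the array, the 2 probe sets of Rps24 lay 47.2 points apart in their mean (57.8 and 10.6), and the 3 of Rpsa up to 39.6 points (85.1, 53.1 and 45.5). The brightest Rpsa probe set read 7.67, 11.41 and 10.90 log2 and was above background in cells 2 and 3, so the low value of the gene comes from the other two. The 2 probe sets of Rpl7 differed by 21.6 points, with 8.55 and 8.82 log2 in cell 2 but 5.42 and 8.71 log2 in cell 3. For Rpl14, Rpl7l1 and Rpl3 the gap was 20.9, 14.3 and 13.8 points. Over the whole array, pairs of probe sets of 1 gene were barely related in level within an array (r = 0.011, 0.045 and 0.074 across 4525 genes in cells 1, 2 and 3), so the level given for a gene turns on the probe sets annotated to it, and a gene with 1 probe set offers no check. Whether an old annotation or the summary of the probes lies behind this was not tested, and the limit holds for every gene value given here.

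**Figure D2:**
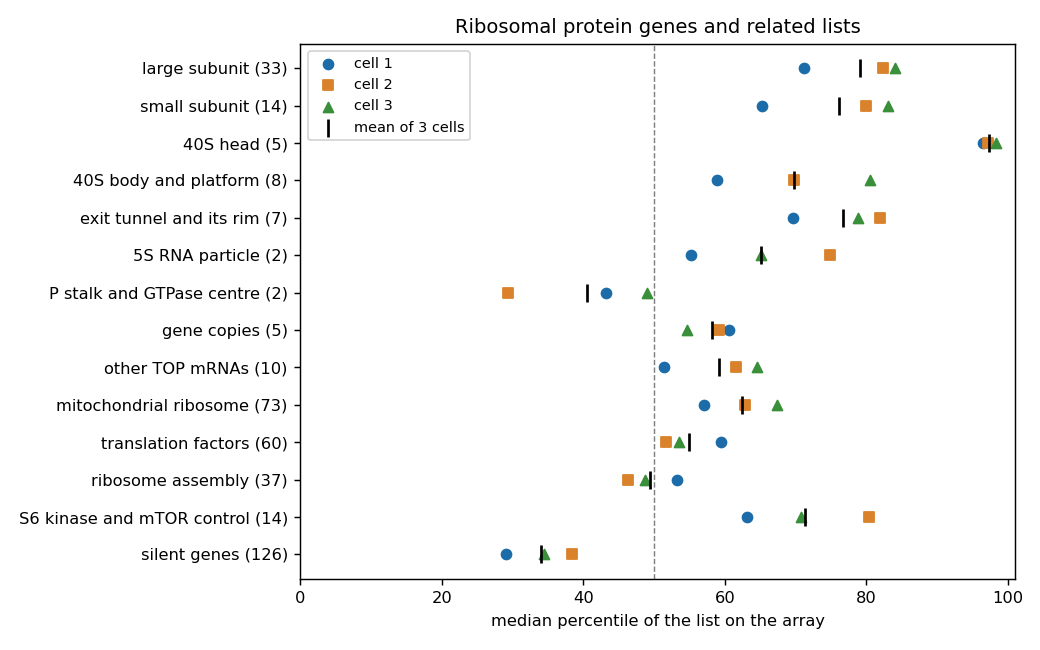
Median percentile of each list of genes (vertical axis, number measured in brackets) with circles for cell 1, squares for cell 2, triangles for cell 3 and a bar at their mean. The head of the small subunit lies at the right in every cell, and ribosome assembly lies around the middle. The median of the 2 stalk genes lies left of the middle of the array (dashed line), barely in cell 3 and furthest in cell 2.

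Related genes did not all stand as high. The 73 proteins of the mitochondrial ribosome had medians of 57.1, 62.8 and 67.4, with Mrps30 (90.7, 94.5 and 94.99) at the top and Mrpl30 (4.54, 8.29 and 3.46) at the bottom. The 60 translation factors stood at 59.4, 51.7 and 53.5, and among them the helicase Eif4a1 read 99.3, 99.7 and 99.6. The 37 ribosome assembly genes were around the middle, at 53.2, 46.3 and 48.7. There Nop10, a part of the particles that modify ribosomal RNA, read 98.8, 99.4 and 99.2, and fibrillarin (Fbl), the methyltransferase of ribosomal RNA, 0.70, 0.24 and 4.10. The 10 measured messages with a TOP tract other than ribosomal proteins stood at 51.4, 61.6 and 64.5, led by the elongation factor subunit Eef1b2 (91.8, 79.9 and 94.1). Of genes in the mTOR and S6 kinase pathway, 14 were measured, with medians of 63.1, 80.3 and 70.8. The mTOR partner Rptor read 91.9, 87.9 and 90.4, whereas Rps6kb1, the kinase of Rps6, read 42.9, 15.7 and 12.4. Rack1, a scaffold on the head of the small subunit, read 73.5, 92.8 and 96.4, and Naca, which binds chains leaving the ribosome, 25.9, 24.7 and 19.5. By list median, the ribosomal protein genes and the mitochondrial ribosome were lowest in cell 1. So were the other TOP messages and the mTOR and S6 kinase genes, but not the translation factors and assembly genes. Gene by gene, 33 and 36 of the 60 translation factors were still higher in cells 2 and 3 than in cell 1, with median differences of -0.10 log2 for cell 1 minus cell 2 and -0.25 for cell 1 minus cell 3.

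Cell 1 held lower levels of the ribosomal protein genes than the other somata. Of the 47 members, 31 (66.0%) were lowest in cell 1, 21 of the large and 10 of the small subunit, against 41.6% of all genes. In cell 3 lay the highest value of 23 members (48.9%), 14 large and 9 small, against 36.2% of all genes. After quantile normalisation, the median difference over members was -0.54 log2 for cell 1 minus cell 2 and -0.99 for cell 1 minus cell 3, where it was -0.10 and -0.21 over all genes. Between cell 2 and cell 3 it was -0.05 for members and for all genes. The lower level in cell 1 was shared by both subunits, at -0.48 and -0.68 for the large and -0.82 and -1.14 for the small. For cell 2 minus cell 3 the subunits differed, at 0.02 for the large and -0.33 for the small. Higher in cell 3 than in cell 2 were 16 of 33 large and 10 of 14 small subunit genes.

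Other measures also set cell 1 apart. The control probe sets for Gapdh read higher at the 3′ than at the 5′ end of the message, by 0.20 log2 in cell 1 and by 3.06 and 2.93 in cells 2 and 3, and those for actin by 0.32, 2.07 and 1.71. Among 10 microglial markers, 4 were above background in cell 1 and 0 in cells 2 and 3, with list medians of 81.1, 46.9 and 24.1, and Tyrobp, a microglial signalling adaptor, read 99.3, 9.95 and 2.94. Not all of the list went that way, since Aif1 (1.65, 32.0 and 28.3), Cx3cr1 and C1qb (51.6, 59.8 and 75.8) were lowest in cell 1. Of 8 astrocyte markers 2, 0 and 0 were above background (medians 78.6, 32.0 and 42.4), and of 8 oligodendrocyte markers 1, 0 and 0 (80.1, 59.5 and 47.8). The 7 neuronal markers were at 85.8, 85.2 and 90.1, and of the 6 pyramidal markers Neurod2 and Nrgn were high in each cell while Camk2a and Tbr1 were below the middle in each, as was the neuronal marker Syt1. The 8 measured interneuron markers had medians of 49.5, 63.0 and 35.7, the 9 of endothelium and fibroblasts 55.9, 57.7 and 37.4 with Vwf at 99.8 in each cell, and the 8 of dividing cells 38.4, 19.4 and 23.7. The part of these differences in the lower ribosomal protein values of cell 1 was not tested.

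**Figure D3:**
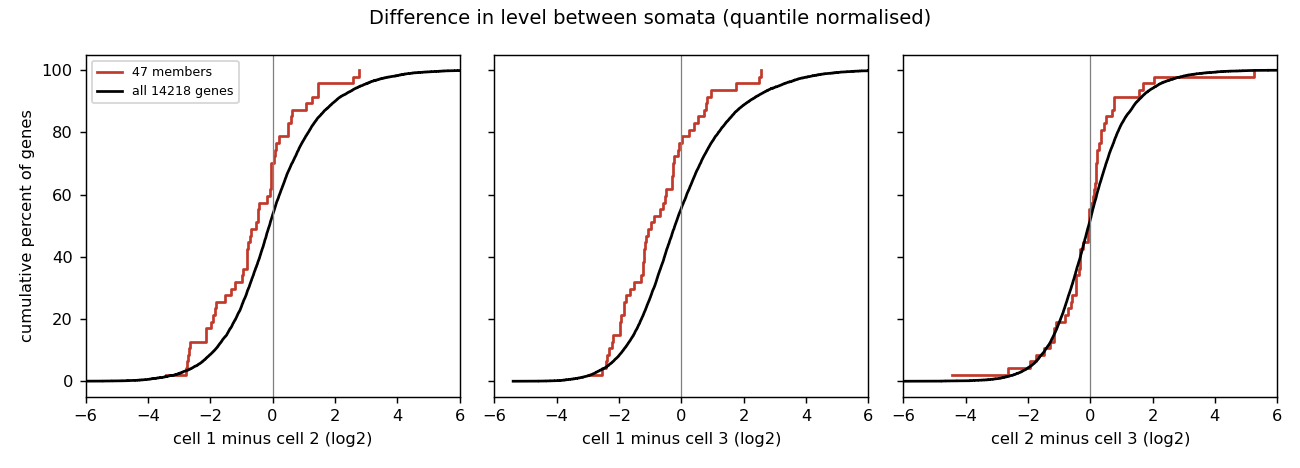
Cumulative percent of genes (vertical axis) against the difference in quantile-normalised log2 level between 2 somata (horizontal axis), for the 47 ribosomal protein genes (red) and all 14218 genes (black). The red curve lies left of the black one over most of its course where cell 1 is set against cell 2 or cell 3. Its medians there are -0.54 and -0.99. For cells 2 and 3 both curves have a median of -0.05, and the members spread less (median SD 0.32 log2 against 0.53).

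The order of the genes was in part kept between somata. Pearson's r across the 47 members was 0.656 for cells 1 and 2, 0.710 for cells 1 and 3, and 0.689 for cells 2 and 3 (mean 0.685 ± 0.027, SD, 3 pairs), and the mean Spearman's rho was 0.696. Over all genes r was 0.473, 0.438 and 0.676, and for the mitochondrial ribosome 0.474, 0.213 and 0.648. By subunit the values differed more between the pairs. The large subunit had r of 0.560, 0.686 and 0.748, highest for cells 2 and 3 as over all genes. The small subunit had 0.819, 0.753 and 0.577, lowest for that pair. With 14 genes, that low value can rest on 1 of them: Rps15 read 10.70 log2 in cell 2 and 5.42 in cell 3. The small subunit r was not computed without Rps15, so no split between the subunits is drawn from these values. Genes are not independent replicates, and part of any such correlation is the fixed affinity of each probe set, which the arrays share.

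**Figure D4:**
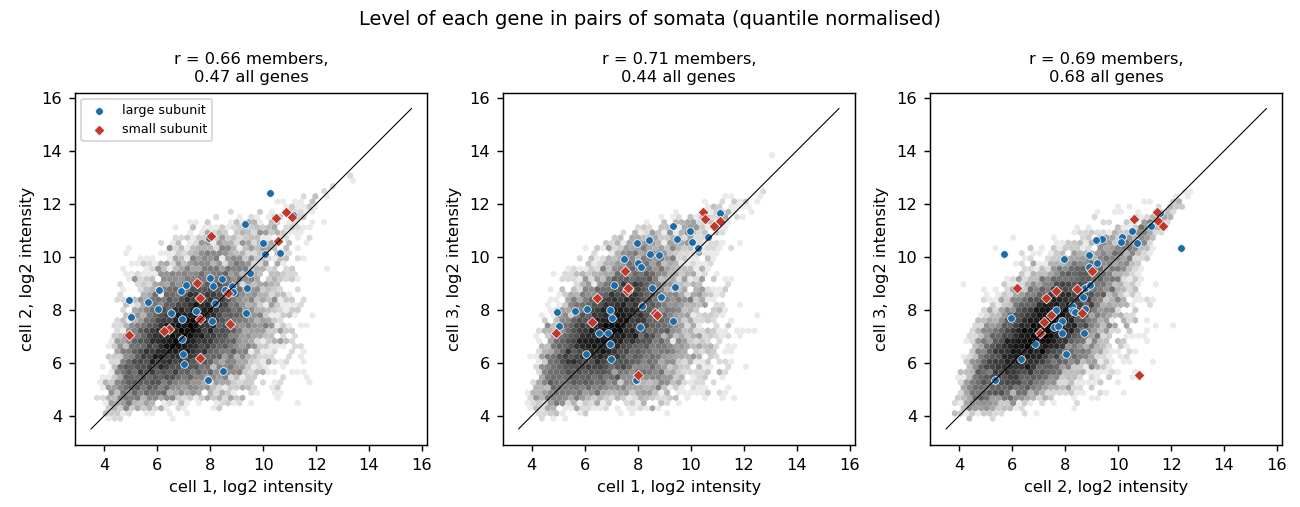
Quantile-normalised log2 intensity of each gene in pairs of somata, the lower-numbered cell on the horizontal axis, for large subunit genes (circles), small subunit genes (diamonds) and all genes (grey, darker for more genes), with the line of equal values. Pearson's r across members is 0.66, 0.71 and 0.69 in the 3 panels, against 0.47, 0.44 and 0.68 across all genes, and most members lie above the line in the panels with cell 1.

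The agreement was better at the upper end of the order. Of the 10 highest members in a cell, 6 were the same genes in all 3 cells (Rpl23, Rpl41, Rps16, Rps23, Rps28 and Rps29), and of the 10 lowest only Rps24. In all, 14 genes entered the highest 10 of some cell and 19 the lowest 10. The median range of percentile was 4.05 points in the 15 members of highest mean level, 23.0 in the 17 in the middle and 44.3 in the 15 lowest. Percentiles are compressed near the top, and the SD of the log2 values, which is not bounded in that way, was 0.50, 0.75 and 1.00. However, these 3 sets were formed by the mean percentile of the same 3 cells. A member that is low in 1 cell tends to fall out of the highest set, so neither measure of spread tests the agreement at the top.

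The median SD of a member over the cells was 0.72 log2, 0.88 for the large and 0.66 for the small subunit, close to the 0.77 of all genes. Without cell 1 it was 0.32, against 0.53 for all genes. Without cell 2 it was 0.82, against 0.70, and without cell 3 it was 0.57, against 0.63. Members thus differed less than genes at large between cells 2 and 3 and, by a smaller margin, between cells 1 and 2, and more between cells 1 and 3.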

How the data were processed

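RNA of 3 single somata was measured on Affymetrix rat genome arrays, with 5 µg of amplified RNA per array, and each array is 1 sample of the group soma. The authors deposited log2 values per probe set, for which the labels name RMA 2.0; genome build and background steps are not given in the sources used here, and the methods of the study do not describe these somata separately. The labels call the somata biological replicates and name no animal or dish, so no p-value was computed. The number of arrays limits the precision, since no depth applies to intensities.

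Gene symbols came from the platform annotation, which can be old. Of 31099 probe sets 20832 had 1 symbol, 436 several and 9780 none, and 57 were control probe sets. Single-symbol probe sets were reduced to their median per gene (14218 genes), ranked within the array, with ties at their mean rank. Quantile normalisation over the 3 arrays preceded correlations, differences and SDs, since the arrays, once sorted, were up to 0.43 log2 apart. Silent genes were 28 receptor genes of smell, pheromone and taste and 98 genes of other organs. Start windows came from RefSeq GRCr8, matched by symbol, which was not the basis of the array.

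Members, lists and the rule for named genes were chosen with earlier results of these data known. Per subunit the rule named the 6 highest and 6 lowest members by mean percentile, then the 6 of widest range, probe sets over 50 points apart (none), gene copies with their parents, stalk genes, Rpsa, Rps6 and Rps29, and the 2 highest and lowest of related lists. Other members are named as examples or for their lists, after their values were seen. Alternatives were the probe set choice, mean for median, probe sets instead of genes, members without copies, background limits, the top 10%, a filter on low values, values without normalisation, and each cell left out. Scripts were tested on simulated data and used Python 3.11.15, pandas 2.3.3, numpy 2.4.6, scipy 1.17.1 and matplotlib 3.10.9.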

Additional observations from a re-analysis of the deposited data

How the results depend on the processing

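The 8 main results were computed again under the alternatives. Of the values obtained, 58 kept their direction and stayed within the spread over the cells, or within 1.5 times for a count. A further 11 moved beyond that limit and 2 reversed, as given here. Taking the brightest probe set for each gene, the large subunit was at 71.5, the mean r across members was 0.655 and 3 members were in the top 5% of every cell. With means in place of medians, all members were at 70.4 and the large subunit at 69.9, and large minus small was -1.67. Among the 694 genes whose mean passed background, which left 12 members (8 large and 4 small), all members were at 59.6, the large subunit at 44.6, large minus small at -29.7, the mean r at 0.389 and the median SD at 0.42 log2; fewer and brighter genes are compared there by construction. Leaving out each cell in turn gave 75.9 to 82.6 for all members, 76.8 to 83.2 for the large and 72.6 to 81.5 for the small subunit, 1.67 to 4.18 for large minus small, 0.654 to 0.712 for the mean r, 6 to 9 members in the top 5% of every cell, 9 to 11 above background in every cell, and a median SD of 0.32 to 0.82. The median SD without cell 1 (0.32) and the mean r without cell 3 (0.654) moved beyond the spread over the cells. None of these 8 results moved beyond that spread, or beyond 1.5 times for a count, under the other alternatives. These were leaving out gene copies, dropping probe sets of ambiguous match, ranking single probe sets, other background limits, the top 10% and unnormalised values. Single genes did move: without ambiguous probe sets Rpsa was at a mean percentile of 85.7 (53.0 in the main setting), Rps24 at 7.61 (32.0) and Rpl3 at 96.8 (92.5), and the brightest probe set put Rpsa at 82.0. In all, 28 values of named genes moved beyond their spread, 11 with the brightest probe set, 11 after the filter, 3 without ambiguous probe sets and 3 with single probe sets, and 186 did not. No paired analysis was possible because the series has 1 group. Signal over background limits the reading of the 27 members that passed the limit in no cell.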

Other observations

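A further 36 probe sets carry a ribosomal protein symbol among several symbols and are not members, since their signal cannot be given to 1 gene. Their median percentile among the probe sets of the array was 54.8, 71.9 and 69.6 in cells 1, 2 and 3, against 67.1, 79.1 and 82.5 for the 54 member probe sets. Above background were 6, 5 and 8 of them, and 3 were so in every cell. Their mean percentiles ran between 1.75 and 96.6, with 3 under 25. Pearson's r across them was 0.547 for cells 1 and 2, 0.634 for cells 1 and 3 and 0.861 for cells 2 and 3. Like the members, they were lowest in cell 1.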
